A study of Schizocardium californicum with 12 samples.

Results

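Expression of the Wnt signalling genes was examined in larvae and juveniles of the hemichordate *Schizocardium californicum*, an acorn worm with a swimming larva and a burrowing adult, after X-ray irradiation. The genes were taken by name from the authors' gene table: every gene named as a Wnt ligand, a Frizzled receptor, a secreted Frizzled-related protein or a Dickkopf protein, together with a fixed list of co-receptors, R-spondin receptors, secretion factors, destruction complex proteins, TCF factors and planar polarity proteins. This rule found 54 of 27463 genes, and a number after a hyphen separates genes with the same name. They comprise 11 Wnt ligands, 9 Frizzled receptors, 7 co-receptors, 2 alternative receptors, 8 secreted antagonists, 4 genes for ligand lipidation and secretion, 5 R-spondin and Lgr genes, 6 cytoplasmic relay genes, 1 nuclear effector and 1 planar polarity gene. Names follow the authors' annotation, and the descent of the genes was not examined here.

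In 4 groups of 3 libraries, whole animals in pools of 5 were compared: irradiated larvae (120 Gy), control larvae (0 Gy), irradiated juveniles (200 Gy) and control juveniles (0 Gy). RNA was taken 3 days after irradiation, and the study states that the replicates were independent. As the doses differed between the stages, stage and dose cannot be told apart wherever their responses are compared. Larvae were reared on the algae *Dunaliella tertiolecta* and *Rhodomonas lens*, and animals that began metamorphosis were moved into bowls with sand. Feeding of the juveniles is not described. Rearing thus differed with stage and cannot be told apart from it. The labels give neither the age of the animals nor the sex.

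Wnt proteins are secreted, lipid-modified ligands that bind Frizzled receptors. Together with the co-receptors Lrp5 and Lrp6 they prevent the destruction complex of Axin, APC and GSK3 from degrading beta-catenin, which then acts with TCF factors in the nucleus. Other branches act through Ror, Ryk or the planar polarity proteins without beta-catenin. In many animals the pathway patterns the main body axis, and in several it maintains dividing cells in adult tissue. The roles given for single genes below are known from vertebrates or flies.

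Library totals over all genes ranged from 7675726 to 26974509 reads, with a median of 12189893.5. The Wnt signalling genes took from 0.223% to 0.275% of them. Levels of different genes are compared in TPM (a relative abundance corrected for gene length), and levels of 1 gene between libraries in normalized counts (reads divided by the effective library size and scaled to a common size). After a filter on low counts 49 of the 54 genes (90.7%) were tested among 20780 genes. Genes with an adjusted p of at most 0.05 are described as called, with p from the quasi-likelihood test of edgeR adjusted over all 20780 by the Benjamini-Hochberg method. The 5 genes left untested were Fzd8-2, Lrp6-1, Lgr5-1, Lgr5-2 and Lgr5-3, which had at most 4.81 normalized counts in any library.

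RNA levels of some cell type markers changed with irradiation in these whole animals. Of 34 tested cell division markers, 21 fell in larvae and 23 fell in juveniles, while 1 rose in juveniles. Their summed normalized counts were 5296 to 5730 in irradiated larvae, against 9795 to 10841 in control larvae. In irradiated juveniles they were 4166 to 4406, against 5781 to 7991 in control juveniles. Some of these markers, such as Nusap and Anln, had been reported by the study as falling after irradiation, so their fall was known beforehand. Of 31 ciliated cell markers, 22 rose in juveniles and 0 were called in larvae, where 1 had an unadjusted p under 0.05. Their sums were 134014 to 159192 in irradiated juveniles, against 82054 to 86899 in control juveniles. None of the genes of either list was at 0 in any group. In larvae 1 of 36 nerve markers and 1 of 25 muscle markers fell, where 2.05% of all tested genes were called lower. In juveniles 2 nerve and 4 muscle markers fell and 1 muscle marker rose, where 11.1% of all tested genes were called lower and 10.8% higher. Summed nerve markers reached 10792 to 13352 in irradiated juveniles and 12080 to 15839 in control juveniles, and summed muscle markers 60288 to 62918 in irradiated juveniles and 56833 to 63268 in control juveniles. The part of these lists in the values of the Wnt signalling genes was not tested, and fewer cells of a type cannot be told apart from less RNA per cell.

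Irradiation was followed by few changes in the Wnt signalling genes. In both stages the secreted antagonist Sfrp5-1 rose. In juveniles the ligand Wnt2b also rose, and the co-receptors Lrp5-1, Lrp5-2 and Lrp6-5 and the destruction complex gene Apc-2 fell. Of 49 tested genes, 1 was called higher and 0 lower in larvae, where 1.87% of all tested genes were called higher and 2.05% lower. In juveniles 2 were called higher and 4 lower, with 10.8% of all tested genes called higher and 11.1% lower. Called genes were thus a smaller share of the Wnt signalling genes than of all genes in juveniles and a share close to it in larvae, a comparison that was not tested. With an unadjusted p under 0.05, 9 genes were higher and 1 lower in larvae, and 9 were higher and 5 lower in juveniles. DESeq2 called 3 higher and 0 lower in larvae (Sfrp5-1, Wif1 and Wnt2b) and the same 6 genes in juveniles. The median log2 fold change of the Wnt signalling genes was −0.02 in larvae and −0.02 in juveniles, beside 0.01 and −0.04 over all tested genes. The 3 irradiated libraries lay wholly apart from the 3 controls for 13 genes in larvae (26.5%, against 24.2% of all tested genes) and for 16 genes in juveniles (32.7%, against 40.7%).

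**Figure D1:**
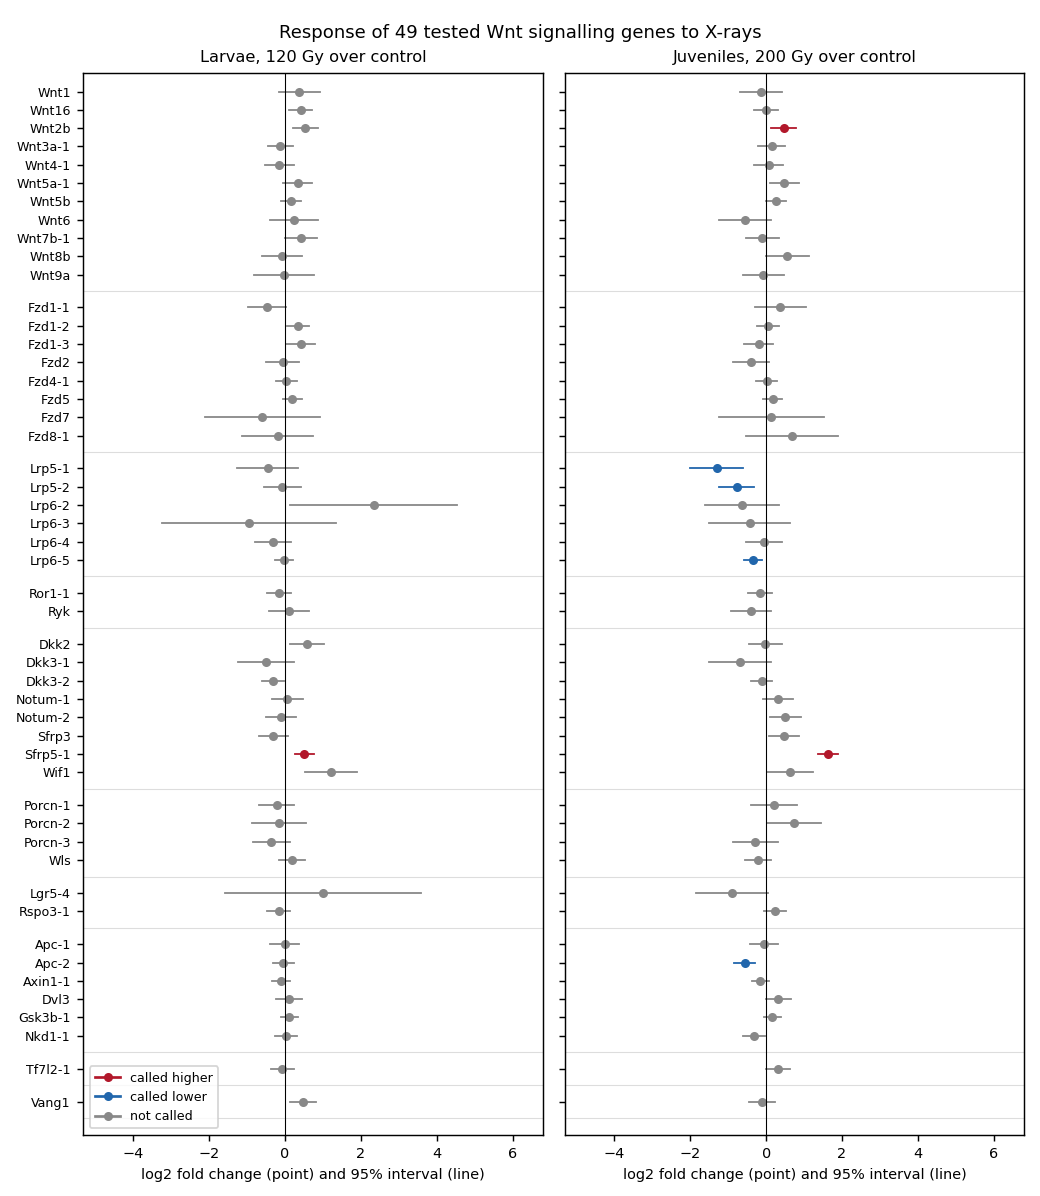
Response of the 49 tested Wnt signalling genes to irradiation, as log2 fold change (point) with its 95% interval (line), in larvae on the left and juveniles on the right. Genes are grouped by role from the ligands at the top to Vang1 at the bottom. Most intervals cross 0: the coloured points are Sfrp5-1 in larvae, at 0.52, and Sfrp5-1 (1.62), Wnt2b (0.46), Apc-2 (−0.57), Lrp5-1 (−1.30), Lrp5-2 (−0.77) and Lrp6-5 (−0.34) in juveniles.

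Sfrp5-1 (SCA08509, chr5A_Sc2) encodes a secreted Frizzled-related protein, which binds Wnt ligands outside the cell through a domain like that of the Frizzled receptors. It had 2152, 2042 and 2083 normalized counts in irradiated larvae, against 1589, 1518 and 1282 in control larvae. In irradiated juveniles it had 1602, 1964 and 1739, against 564, 559 and 605 in control juveniles. All irradiated libraries were above all controls of their stage, and the control juveniles were the lowest of the 4 groups. The rise was 1.43-fold in larvae (log2 fold change 0.52 ± 0.12 SE, adjusted p = 0.0307, n = 3 each, edgeR). In juveniles it was 3.07-fold (log2 fold change 1.62 ± 0.12, adjusted p = 1.25e-05, edgeR). The juvenile response exceeded the larval one by 1.10 on the log2 scale (95% interval 0.74 to 1.46, adjusted p = 0.0113). Among the 49 genes this was the only difference between the stages that was called, where 1.87% of all tested genes were called with a higher and 1.6% with a lower juvenile response (4 of the 49 were higher and 5 lower at an unadjusted p under 0.05). DESeq2 called the same gene. The larval call was lost when any 1 of the 6 larval libraries was left out (log2 fold change 0.43 to 0.56, adjusted p = 0.0619 to 0.0853), whereas the juvenile call and the difference were kept each time. With the larval libraries alone or the replicate number as a block the larval call was lost as well (adjusted p of at most 0.0833).

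The other secreted antagonists were not called after irradiation. Wif1, which binds Wnt proteins, had 134, 92.7 and 249 normalized counts in irradiated larvae, against 77.5, 84.6 and 44.6 in control larvae. In juveniles it had 555, 583 and 680 after irradiation, against 409, 347 and 422 in controls. Both stages were without overlap, with log2 fold changes of 1.22 ± 0.32 in larvae (adjusted p = 0.0531) and 0.62 ± 0.28 in juveniles (adjusted p = 0.132). DESeq2 called the larval value (adjusted p = 0.00629), and so did edgeR without irradiated larvae replicate 2 (adjusted p = 0.0188). Without irradiated larvae replicate 3, the library with 249, the larval log2 fold change was 0.76 (adjusted p = 0.142). Sfrp3, another Frizzled-related protein, had 903, 1154 and 1053 in irradiated juveniles, against 704, 704 and 842 in control juveniles (log2 fold change 0.46, adjusted p = 0.0826). Notum-2, an enzyme that removes the lipid from Wnt proteins, had 681, 453 and 673 in irradiated juveniles, against 399, 438 and 440 in control juveniles (log2 fold change 0.50, adjusted p = 0.0716). When the 6 juvenile libraries were fitted alone, Wif1, Sfrp3 and Notum-2 were called higher with adjusted p of 0.00702, 0.0276 and 0.0443. The remaining antagonists, Notum-1 and the Dickkopf genes Dkk2, Dkk3-1 and Dkk3-2, had log2 fold changes of −0.49 to 0.59 in larvae and −0.69 to 0.31 in juveniles. The summed TPM of all 8 antagonists was 387 ± 36.5 (SD, n = 3) in irradiated juveniles and 303 ± 27.9 in control juveniles. In larvae the sums were 345 ± 22.5 after irradiation and 305 ± 8.68 in controls. Genes were counted as antagonists by name. Dkk3-2 gave 109 TPM of the sum in irradiated juveniles and 122 TPM in control juveniles, and whether it inhibits Wnt signalling was not examined.

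Among the 11 Wnt ligands, only Wnt2b in juveniles was called after irradiation. Wnt2b (SCA04308, chr3A_Sc2) had 239, 250 and 241 normalized counts in irradiated juveniles, against 169, 151 and 205 in control juveniles. In irradiated larvae it had 393, 356 and 322, against 279, 217 and 243 in control larvae. Irradiated libraries were above the controls without overlap in both stages. The log2 fold change was 0.46 ± 0.15 in juveniles (adjusted p = 0.0433) and 0.54 ± 0.15 in larvae (adjusted p = 0.0597). The difference between the stages was −0.08 (95% interval −0.54 to 0.38). The juvenile call held with control juveniles replicate 3 left out (adjusted p = 0.0263) and was lost with each of the other 5 juvenile libraries left out (adjusted p = 0.0812 to 0.130). It was also lost with no filter on low counts and with the replicate number as a block (adjusted p of at most 0.0593). Wnt5a-1, a ligand that often acts without beta-catenin, had 861, 657 and 732 in irradiated juveniles, against 572, 413 and 621 in control juveniles (log2 fold change 0.48, adjusted p = 0.0691), and was called when the juvenile libraries were fitted alone (adjusted p = 0.0441). Wnt16 had 555, 442 and 505 in irradiated larvae, against 376, 344 and 406 in control larvae, without overlap but also without a call (log2 fold change 0.42, adjusted p = 0.130). The other 8 ligands had log2 fold changes of −0.15 to 0.42 in larvae and −0.56 to 0.56 in juveniles. The 11 ligands together reached 208 ± 23.4 TPM in irradiated larvae and 163 ± 8.32 TPM in control larvae. In irradiated juveniles they reached 134 ± 0.937 TPM, and 116 ± 20.8 TPM in control juveniles. Genes with ligand names in another spelling, described below, are left out of these sums.

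**Figure D2:**
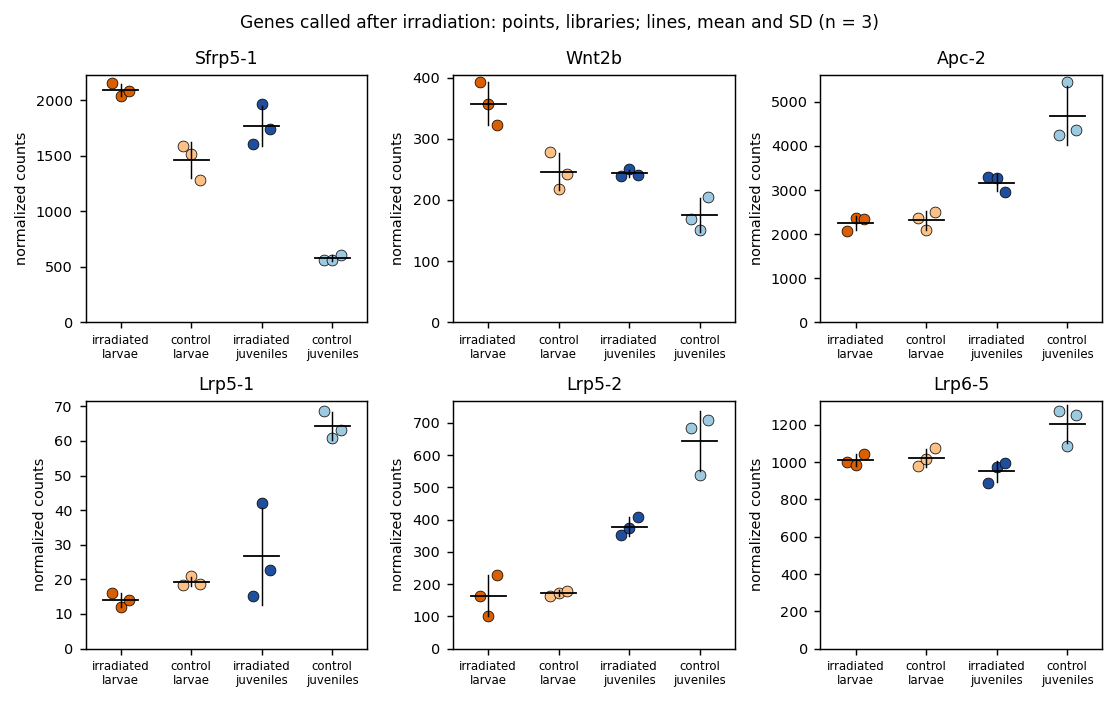
Normalized counts in every library of the 6 Wnt signalling genes called after irradiation, with irradiated larvae, control larvae, irradiated juveniles and control juveniles from left to right. Points are libraries, horizontal lines means and vertical lines SD (n = 3), and each axis starts at 0. Sfrp5-1 and Wnt2b lie above the controls in both stages, whereas Apc-2, Lrp5-1, Lrp5-2 and Lrp6-5 lie below the controls in juveniles. In larvae Apc-2, Lrp5-2 and Lrp6-5 overlap the controls, and Lrp5-1 lies below them without overlap but was not called.

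No Frizzled receptor was called after irradiation in either stage. Fzd1-2, Fzd4-1 and Fzd5 had log2 fold changes of 0.34, 0.04 and 0.20 in larvae and of 0.04, 0.01 and 0.17 in juveniles. Fzd1-1 had 1532, 894 and 1963 normalized counts in irradiated larvae, against 2039, 1744 and 2298 in control larvae, and these groups overlapped (log2 fold change −0.47, adjusted p = 0.280). Fzd7 and Fzd8-1 varied by more than 3-fold between libraries of some groups, and their 95% intervals were correspondingly wide: −1.25 to 1.52 for Fzd7 and −0.54 to 1.89 for Fzd8-1 in juveniles. Summed TPM of the Frizzled genes was 392 ± 52.0 in irradiated larvae and 382 ± 15.7 in control larvae, and 230 ± 10.7 in irradiated juveniles and 228 ± 25.6 in control juveniles. Of the alternative receptors, which serve branches without beta-catenin, Ror1-1 had log2 fold changes of −0.15 in larvae and −0.16 in juveniles, and Ryk of 0.11 and −0.41, none of them called.

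The co-receptors Lrp5 and Lrp6 pass the ligand signal on to Axin. Exon lengths of genes with these names were 1878 bases for Lrp5-1 and 3159 for Lrp5-2. They were 309 bases for Lrp6-1, 1332 for Lrp6-2, 2232 for Lrp6-3, 5040 for Lrp6-4 and 5656 for Lrp6-5. Whether the shorter models are complete co-receptor genes, or parts of the same gene counted more than once, was not examined. Counts of co-receptor genes are therefore counts of gene models. In irradiated juveniles 3 of the 6 tested co-receptor genes fell, where 11.1% of all tested genes were called lower. All 6 log2 fold changes were negative there, with a median of −0.53 beside −0.04 over all tested genes, although that of Lrp6-4 changed sign without control juveniles replicate 1 (0.02) or irradiated juveniles replicate 2 (0.20). Lrp5-1 (SCA01737, chr2A_Sc2) had 15.1, 42.1 and 22.7 normalized counts in irradiated juveniles, against 68.7, 60.7 and 63.2 in control juveniles. Lrp5-2 (SCA02291, also on chr2A_Sc2) had 351, 373 and 409 in irradiated juveniles, against 685, 539 and 710 in control juveniles. Lrp6-5 (SCA18930, chr19A_Sc2) had 889, 974 and 994 in irradiated juveniles, against 1276, 1087 and 1253 in control juveniles. In all 3 genes every irradiated library was below every control. The log2 fold changes were −1.30 ± 0.32 for Lrp5-1 (2.47-fold lower, adjusted p = 0.0124), −0.77 ± 0.21 for Lrp5-2 (1.71-fold lower, adjusted p = 0.0210) and −0.34 ± 0.11 for Lrp6-5 (1.27-fold lower, adjusted p = 0.0387).

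In larvae the same co-receptors were not called. Lrp5-1 had 16.0, 12.0 and 13.9 normalized counts in irradiated larvae, against 18.4, 20.9 and 18.7 in control larvae, lower without overlap. Its log2 fold change was −0.45 with a 95% interval of −1.26 to 0.35. For Lrp5-2 the counts were 164, 102 and 227 in irradiated larvae, against 162, 174 and 179 in control larvae, and for Lrp6-5 they were 999, 985 and 1045 in irradiated larvae, against 980, 1018 and 1076 in control larvae. The differences between the stages were −0.85 for Lrp5-1 (interval −1.92 to 0.22, adjusted p = 0.369), −0.71 for Lrp5-2 (−1.38 to −0.04, adjusted p = 0.227) and −0.32 for Lrp6-5 (−0.65 to 0.01, adjusted p = 0.271). The stages were therefore not shown to differ.

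The juvenile calls of the co-receptors depended on single libraries. Lrp5-1 lost its call without irradiated juveniles replicate 3 (adjusted p = 0.0526). Lrp5-2 lost it without control juveniles replicate 1 (0.0682) or 3 (0.0737) and without irradiated juveniles replicate 1 (0.0776) or 2 (0.0634). Lrp6-5 kept it only with control juveniles replicate 2 left out (adjusted p = 0.0275), and reached 0.0596 to 0.137 in the other 5 cases. The Lrp6-5 call was also lost with no filter on low counts, with the 6 juvenile libraries alone and with the replicate number as a block, with adjusted p of at most 0.071. Of the Lrp5-2 reads 40.0% lay in introns, and with exon reads only its log2 fold change was −1.18 (adjusted p = 0.00488). Lrp6-4 is uncertain, since 38.2% of its reads could not be placed uniquely and 39.2% lay in introns. It had 1254, 599 and 1194 in irradiated juveniles, against 1180, 970 and 1045 in control juveniles (log2 fold change −0.07, adjusted p = 0.869), and was called lower with uniquely placed reads only (−0.63, adjusted p = 0.0171) and with exon reads only (−0.67, adjusted p = 0.0143). Summed over the 7 co-receptor genes, exon reads gave 48.8 ± 7.42 TPM in irradiated juveniles and 79.7 ± 13.2 TPM in control juveniles, and 46.5 ± 4.51 TPM in irradiated larvae and 49.7 ± 3.56 TPM in control larvae.

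In the destruction complex, Apc-2 fell in juveniles while the other genes were not called. Apc-2 (SCA15997, chr11A_Sc2) carries the name of APC, the scaffold that helps to mark beta-catenin for degradation. It had 3286, 3275 and 2944 normalized counts in irradiated juveniles, against 4257, 5451 and 4364 in control juveniles. In larvae it had 2062, 2360 and 2339 after irradiation, against 2362, 2084 and 2508 in controls. The juvenile groups did not overlap, and the larval groups did. Apc-2 was 1.48-fold lower in irradiated juveniles (log2 fold change −0.57 ± 0.13, adjusted p = 0.00728), and the call was kept without each juvenile library (−0.63 to −0.44, adjusted p = 0.0130 to 0.0312). The larval log2 fold change was −0.04 ± 0.13, and the difference between the stages of −0.53 (95% interval −0.92 to −0.14) was not called (adjusted p = 0.128). Apc-1, in the neighbouring row of the gene table, had 143, 163 and 153 in irradiated juveniles, against 163, 156 and 156 in control juveniles. In larvae it had 107, 107 and 118 after irradiation, against 114, 84.6 and 134 in controls.

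The kinase Gsk3b-1 had 2573, 2673 and 2698 normalized counts in irradiated juveniles, against 2245, 2481 and 2360 in control juveniles, and 2625, 2799 and 2556 in irradiated larvae, against 2563, 2583 and 2177 in control larvae. Its log2 fold changes of 0.17 ± 0.11 in juveniles and 0.12 ± 0.11 in larvae were not called. Axin1-1, the scaffold of the complex, had 2031, 1814 and 1897 in irradiated juveniles, against 2176, 1989 and 2249 in control juveniles, and 1335, 1310 and 1196 in irradiated larvae, against 1402, 1337 and 1378 in control larvae. The log2 fold changes were −0.16 ± 0.10 and −0.10 ± 0.10, and neither was called. Dvl3, a Dishevelled protein that relays the signal from Frizzled, had 3157, 3430 and 3838 in irradiated juveniles, against 2799, 2465 and 3072 in control juveniles. In larvae Dvl3 had 3735, 3208 and 3224 after irradiation, against 3424, 3569 and 2384 in controls. Its log2 fold changes were 0.32 ± 0.16 in juveniles (adjusted p = 0.164) and 0.12 ± 0.16 in larvae (adjusted p = 0.739). Nkd1-1, named after an inhibitor that binds Dishevelled, had a log2 fold change of −0.32 in juveniles (adjusted p = 0.0966) and 0.03 in larvae.

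Beta-catenin itself appears in the gene table under the name Ctnb, which the naming rule does not include, and was described as the centre of the pathway. Ctnb (SCA17042, chr21A_Sc2) had 9389, 9853 and 7771 normalized counts in irradiated juveniles, against 6103, 6520 and 6362 in control juveniles. In irradiated larvae it had 4909, 6640 and 5030, against 3930, 3492 and 4614 in control larvae. Irradiated libraries were above the controls without overlap in both stages. The log2 fold change was 0.51 ± 0.15 in juveniles (1.42-fold, adjusted p = 0.0269) and 0.46 ± 0.15 in larvae (1.38-fold, adjusted p = 0.0986). The juvenile call was kept only without irradiated juveniles replicate 3 (adjusted p = 0.0196), and was lost with each of the other 5 juvenile libraries left out (0.0517 to 0.0971). Beta-catenin also serves cell adhesion, and the amount or place of the protein was not measured.

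The remaining roles gave no calls after irradiation. Tf7l2-1, a TCF factor and the nuclear partner of beta-catenin, had 840, 949 and 1072 normalized counts in irradiated juveniles, against 877, 687 and 741 in control juveniles (log2 fold change 0.31, adjusted p = 0.137), and a log2 fold change of −0.06 in larvae. Vang1, a planar polarity protein of the cell membrane, had 540, 589 and 634 in irradiated larvae, against 384, 428 and 448 in control larvae, without overlap (log2 fold change 0.48, adjusted p = 0.117), and −0.11 on the log2 scale in juveniles. Porcn-1, Porcn-2 and Porcn-3 carry the name of Porcupine, the enzyme that attaches the lipid to Wnt proteins, and Wls that of the carrier that brings them to the cell surface. These 4 genes had log2 fold changes of −0.35 to 0.20 in larvae and −0.29 to 0.74 in juveniles. Rspo3-1, an R-spondin and thus a secreted enhancer of Wnt signalling, had log2 fold changes of −0.16 and 0.22. Lgr5-4, one of 4 genes named after an R-spondin receptor, had 49 reads over the irradiated juvenile libraries and 77 over the control juvenile libraries (log2 fold change −0.90, adjusted p = 0.159).

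A set of 3 further genes has the names of Wnt ligands in another spelling (Wn10a, Wn11b-1 and Wn11b-2), and was looked at after the values had been seen. Wn11b-2 (SCA13544, chr20A_Sc2) had 97.0, 149 and 90.0 normalized counts in irradiated juveniles, against 31.1, 15.6 and 26.8 in control juveniles. In larvae it had 16.0, 4.82 and 20.4 after irradiation, against 11.1, 14.3 and 16.6 in controls. The irradiated juveniles stood far above every other group, with a log2 fold change of 2.15 ± 0.38 (4.45-fold, adjusted p = 0.00187), which was 1.91 to 2.33 when a juvenile library was left out. The larval log2 fold change was −0.02 ± 0.46. The difference between the stages was 2.18 (95% interval 0.87 to 3.48, adjusted p = 0.0675 by edgeR and 0.0125 by DESeq2). Wn10a had 48.5, 32.3 and 54.3 in irradiated juveniles, against 23.3, 23.4 and 20.6 in control juveniles, with 82.9% of its reads in introns, and was not called (log2 fold change 1.03). Wn11b-1 had log2 fold changes of 0.27 in juveniles and 0.17 in larvae after irradiation, neither of them called. It was called lower in control juveniles than in control larvae, without overlap (log2 fold change −0.78, adjusted p = 0.000917, edgeR).

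Between the unirradiated stages the Wnt signalling genes differed far more than after irradiation. Control juveniles had lower levels than control larvae of the Frizzled gene Fzd1-1, of Fzd8-1, Porcn-1 and Porcn-3, of the ligands Wnt3a-1, Wnt5b and Wnt8b, and of the antagonists Notum-2 and Sfrp5-1. They had higher levels of 5 co-receptors, of the ligands Wnt9a and Wnt5a-1, of the antagonists Wif1, Dkk3-2 and Dkk2, and of the destruction complex genes Apc-2 and Axin1-1. In all, 18 of the 49 genes were called higher and 12 lower in control juveniles, beside 32.8% of all tested genes called higher and 29.8% lower. The share of Wnt signalling genes is thus close to that of all genes. The median log2 fold change was 0.07, and 0.03 over all tested genes. The 2 sets of 3 libraries did not overlap for 33 of the 49 genes (67.3%, against 67.6% of all tested genes). The cell type markers differed between the control stages too. In control juveniles 21 of 34 cell division markers were lower and 3 higher, and 18 of 36 nerve markers were lower and 11 higher. Of 25 muscle markers 17 were higher and 5 lower, and of 31 ciliated cell markers 15 were higher and 5 lower. Their part in the stage differences of the Wnt signalling genes was not tested.

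**Figure D3:**
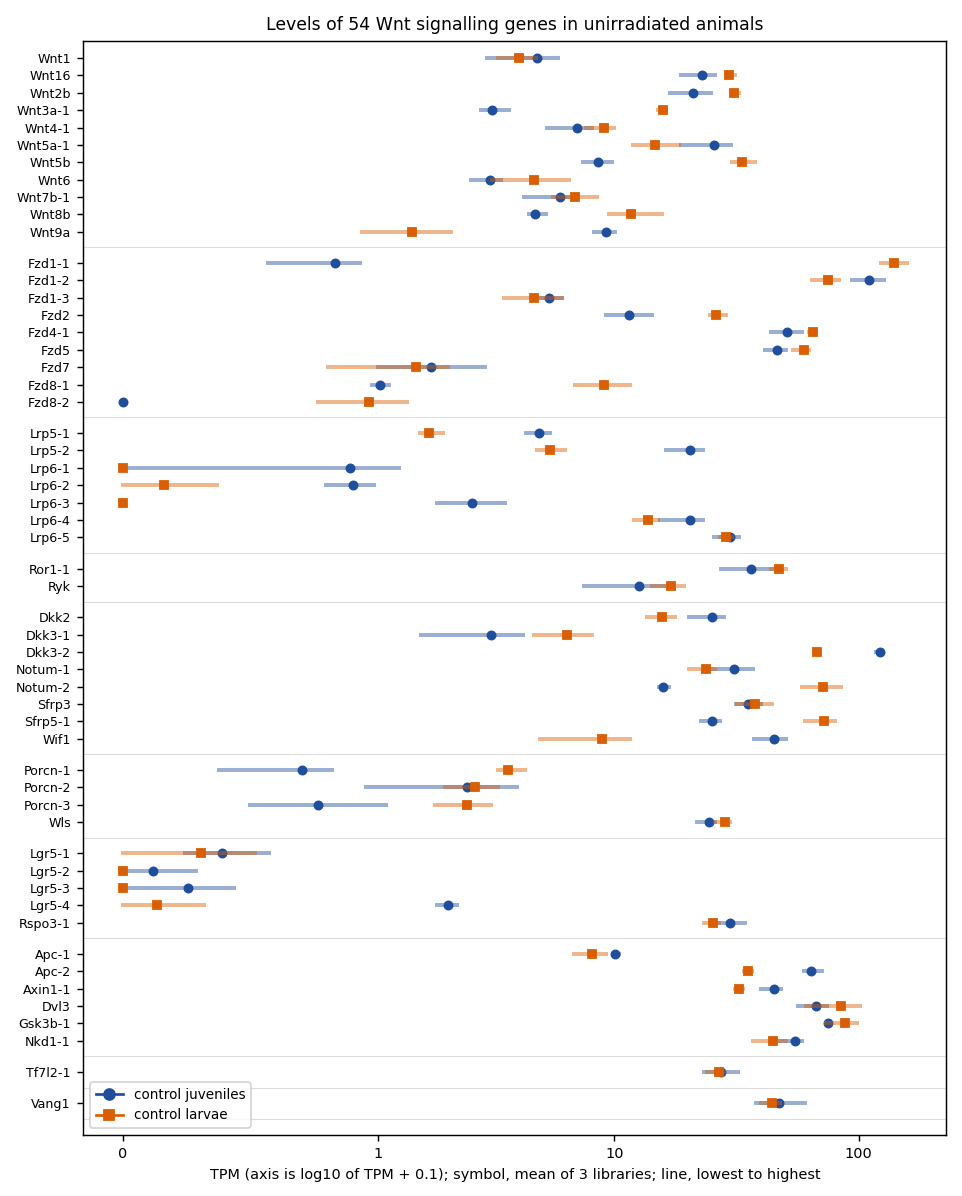
Levels of all 54 Wnt signalling genes in control juveniles (circles) and control larvae (squares), in TPM on a log axis of TPM + 0.1. Symbols are means of 3 libraries and lines run from the lowest to the highest library, with genes grouped by role from the ligands at the top. The widest gap belongs to Fzd1-1, at 0.633 TPM in control juveniles and 140 TPM in control larvae, and the 3 Lgr5 genes left untested are near 0 in both stages.

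Of the 11 Wnt ligands, 2 were called higher and 4 lower in control juveniles, beside 32.8% of all tested genes called higher and 29.8% lower. Wnt3a-1 had 76.5, 84.1 and 102 normalized counts in control juveniles, against 421, 391 and 408 in control larvae, a 4.60-fold lower level (log2 fold change −2.20 ± 0.16, adjusted p = 1.05e-07). Wnt9a went the other way, with 75.2, 87.2 and 82.5 in control juveniles, against 14.8, 11.0 and 6.22 in control larvae (log2 fold change 2.99 ± 0.31, 7.94-fold, adjusted p = 2.41e-06). In neither gene did any library of one stage reach those of the other. Wnt5b (log2 fold change −1.79), Wnt8b (−1.17) and Wnt2b (−0.48) were also lower, and Wnt5a-1 (0.93) was higher. Wnt2b lost its call without control juveniles replicate 2 (adjusted p = 0.0562). In TPM, the highest of these 11 in control juveniles were Wnt5a-1 (25.6), Wnt16 (22.9) and Wnt2b (21.0). In control larvae they were Wnt5b (33.5), Wnt2b (31.0) and Wnt16 (29.6), and within each stage the library ranges of these 3 overlapped. Wn11b-1, which the naming rule does not include, had a higher mean, with 30.0 TPM in control juveniles and 51.9 TPM in control larvae. The lowest of the 11 were Wnt6 (3.06) and Wnt3a-1 (3.09) in control juveniles and Wnt9a (1.42) in control larvae.

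**Figure D4:**
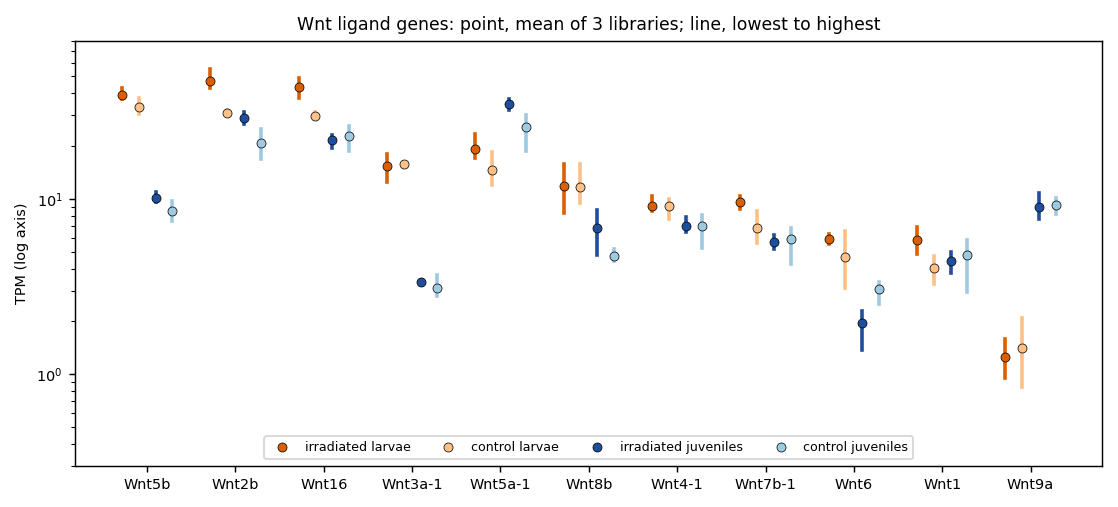
Levels of the 11 Wnt ligand genes in irradiated larvae, control larvae, irradiated juveniles and control juveniles, in TPM on a log axis. Points are means of 3 libraries and lines run from the lowest to the highest library, with genes ordered by their level in control larvae. For Wnt5b, Wnt3a-1 and Wnt9a the gap between the stages is far wider than that between irradiated and control animals of a stage, whereas Wnt1 and Wnt4-1 lie at similar levels in all 4 groups.

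Several ligand genes of unlike pattern stand next to each other in the gene table. Wnt3a-1, Wnt9a, Wnt1 and Wnt6 fill consecutive rows on chr21A_Sc2, followed by Wn10a. Whether the row order is the order on the chromosome is not stated, and the table gives no positions. In control juveniles, set against control larvae, these neighbours differed in direction: Wnt3a-1 was lower, Wnt9a was higher, and Wn10a was higher with 23.3, 23.4 and 20.6 normalized counts in control juveniles, against 1.84, 11.0 and 2.07 in control larvae (log2 fold change 2.05 ± 0.58, adjusted p = 0.00712). Wnt1 had 125, 70.1 and 108 in control juveniles, against 97.8, 70.3 and 122 in control larvae (log2 fold change 0.07, 95% interval −0.48 to 0.62), and Wnt6 had a log2 fold change of −0.47 (adjusted p = 0.203). Other neighbours by row were Wnt7b-1 with Wnt5a-1, Apc-1 with Apc-2, Porcn-3 with Porcn-1, and Lrp5-1 with Lrp5-2 at a distance of 2 rows. The 54 genes lie on 18 sequences named as chromosomes and 1 named as a scaffold, with at most 6 on any of them.

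Fzd1-1 showed the largest stage difference among the tested genes of the set that passed 20 normalized counts on average over the control libraries. Fzd1-1 (SCA01187, chr8A_Sc2) had 32.4, 43.6 and 29.5 normalized counts in control juveniles, against 2039, 1744 and 2298 in control larvae. It was 58.8-fold lower in control juveniles (log2 fold change −5.88 ± 0.30, adjusted p = 3.42e-09), and −7.53 on the log2 scale with exon reads only. Fzd8-1 had 11.7, 14.0 and 12.4 in control juveniles, against 84.9, 94.5 and 132 in control larvae (log2 fold change −3.04 ± 0.52, adjusted p = 0.000227). In both genes the 2 stages were far apart and no libraries overlapped. Fzd2 was also lower in control juveniles (−1.02) and Fzd1-2 was higher (0.72), whereas Fzd4-1, Fzd5, Fzd1-3 and Fzd7 were not called. Fzd1-1 was thus the highest of the Frizzled genes in control larvae, at 140 TPM, and the lowest of the tested ones in control juveniles, at 0.633 TPM, where Fzd1-2 (110 TPM) led. Fzd8-2 had 0 reads over the control juvenile libraries and 8 over the control larval libraries. A count of 0 was taken to allow at most 3 reads over a group. With the 8 larval reads taken as exact, Fzd8-2 was then at least 3.17-fold lower in control juveniles. This limit covers counting error in the 0 only, and error in those 8 reads would weaken it.

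The co-receptors ran the other way, with 5 of 6 tested genes called higher in control juveniles, beside 32.8% of all tested genes. As said above, these are gene models that may not all be separate genes. Lrp6-5 was not called (log2 fold change 0.23, adjusted p = 0.0737). Lrp5-2 had 685, 539 and 710 normalized counts in control juveniles, against 162, 174 and 179 in control larvae (log2 fold change 1.91 ± 0.22, 3.75-fold, adjusted p = 8.05e-06). Lrp5-1 had 68.7, 60.7 and 63.2 in control juveniles, against 18.4, 20.9 and 18.7 in control larvae (log2 fold change 1.72 ± 0.34, adjusted p = 0.000659). The counts of irradiated juveniles, 15.1 to 42.1 for Lrp5-1 and 351 to 409 for Lrp5-2, overlapped those of control larvae in Lrp5-1 and lay above them in Lrp5-2. Lrp6-3 had 48.0, 43.6 and 78.3 in control juveniles, against 0, 5.49 and 3.11 in control larvae (log2 fold change 4.10 ± 0.69, adjusted p = 0.000187). Its TPM, which rests on exon reads, was 0 in all larval libraries, so that the few larval reads lay in introns. With exon reads only the fitted log2 fold change was 8.33, a value that depends on the prior count because it is set against libraries at 0, and is no bound. Lrp6-2 had 52 reads in control juveniles and 1 in control larvae, a ratio of 43.8 with a 95% counting interval of 7.53 to 1764. Introns held 62.5% of the Lrp6-2 reads, and with exon reads only it did not pass the filter on low counts and was not tested. Lrp6-1 had 8 reads in control juveniles and 0 in control larvae, at least 2.25-fold higher if the 8 reads are taken as exact. Lrp6-4 was higher too (0.93), within the limits on its reads given above.

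Secreted antagonists were divided between the stages, with 4 of 8 called higher and 3 lower in control juveniles. The shares over all tested genes were 32.8% higher and 29.8% lower. Wif1 had 409, 347 and 422 normalized counts in control juveniles, against 77.5, 84.6 and 44.6 in control larvae (log2 fold change 2.53 ± 0.32, 5.76-fold, adjusted p = 1.57e-05). Notum-2 had 399, 438 and 440 in control juveniles, against 1688, 1306 and 2062 in control larvae (log2 fold change −1.98 ± 0.19, adjusted p = 1.25e-06), whereas Notum-1 was higher (0.55) and lost its call without control larvae replicate 1 (adjusted p = 0.102), control larvae replicate 2 (0.0563) or control juveniles replicate 1 (0.0909). The 2 Notum genes thus differed in direction, as did Dkk3-1 (−1.09) and Dkk3-2 (1.01). Dkk3-1 lost its call without control larvae replicate 2 (adjusted p = 0.0614) or control juveniles replicate 2 (0.0558). Dkk2 was higher (0.77) and Sfrp3 was not called (0.07). Sfrp5-1, the gene that rose after irradiation, had 2.54-fold lower counts in control juveniles than in control larvae (log2 fold change −1.34 ± 0.12, adjusted p = 6.55e-07). The irradiated juveniles, at 1602 to 1964, lay above the control larvae, at 1282 to 1589.

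Of the genes for ligand secretion, Porcn-1 and Porcn-3 were lower in control juveniles. Porcn-1 had 19.5, 18.7 and 12.4 normalized counts in control juveniles, against 133, 124 and 158 in control larvae (log2 fold change −3.08 ± 0.26, 8.45-fold lower, adjusted p = 3.24e-07). Porcn-3 had 24.6, 21.8 and 28.2 in control juveniles, against 88.6, 136 and 159 in control larvae (log2 fold change −2.35 ± 0.25, adjusted p = 3.46e-06), and −1.83 with exon reads only. Introns held 76.0% of the Porcn-1 reads and 85.8% of the Porcn-3 reads, so these values describe intron reads for the most part. Wls (−0.04) and Porcn-2 (−0.53), of whose reads 29.3% were not placed uniquely, were not called.

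In the cytoplasm, Apc-2 had 4257, 5451 and 4364 normalized counts in control juveniles, against 2362, 2084 and 2508 in control larvae (log2 fold change 1.02 ± 0.13, 2.02-fold, adjusted p = 1.58e-05). After irradiation the juveniles, at 2944 to 3286, still lay above all control larvae. Axin1-1 (0.64), Apc-1 (0.51) and Nkd1-1 (0.43) were also higher in control juveniles, and Gsk3b-1 (−0.05) and Dvl3 (−0.17) were not called. Apc-1 lost its call without control larvae replicate 2 (adjusted p = 0.0977) or control juveniles replicate 1 (0.0530), and Nkd1-1 without control larvae replicate 3 (0.0566). Ctnb was 1.58-fold higher (log2 fold change 0.66 ± 0.15, adjusted p = 0.00174), and the control larvae, at 3492 to 4614, were the lowest of the 4 groups. Rspo3-1 was called higher at 0.34 and lost the call with any library but control juveniles replicate 2 left out (adjusted p = 0.0501 to 0.2). Tf7l2-1, Vang1, Ror1-1 and Ryk were not called.

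The 4 genes named Lgr5 were rare in larvae. Lgr5-4 had 77 reads over the control juvenile libraries and 1 read over the control larval libraries, a ratio of 64.9 with a 95% counting interval of 11.3 to 2596. Lgr5-3 had 7 reads in control juveniles and 0 in control larvae, at least 1.97-fold higher if the 7 reads are taken as exact. Lgr5-1 had 9 reads in control juveniles and 3 in control larvae (ratio 2.53, counting interval 0.631 to 14.5). Lgr5-2 had 3 reads in control juveniles, the limit that a count of 0 allows, and 0 in control larvae.

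Besides these, a list of other Wnt pathway genes (casein kinases, planar polarity proteins, cofactors of TCF and others) matched 149 genes through 36 of its 81 names, and 102 of them were tested. In larvae 3 rose and 2 fell, and in juveniles 9 rose and 13 fell, with the background shares given above. The median log2 fold change in juveniles was −0.27, beside −0.04 over all tested genes. Nfat5-1, a transcription factor gene, fell in both stages, by 0.90 on the log2 scale in larvae (adjusted p = 0.00944) and by 0.90 in juveniles (adjusted p = 0.00165). Kc1a-1, a casein kinase 1 gene of the kind that primes beta-catenin for GSK3, had 5633, 5051 and 4908 normalized counts in irradiated juveniles, against 3328, 2998 and 3418 in control juveniles (log2 fold change 0.68, adjusted p = 0.00290). Kc1a-2 rose in larvae (0.51, adjusted p = 0.0328). Ptk7-1, a receptor-like planar polarity gene, rose in larvae (0.61), and Rac1-4 fell (−1.93). In juveniles Celr1-9 (−2.26) and Tnks2-1 (−1.78) fell, and Nlk was called higher (0.69). Both falls rest on few reads. Over the irradiated and the control juvenile libraries, Celr1-9 had 8 and 31 reads and Tnks2-1 had 29 and 83. Of these calls, those of Kc1a-1 and of Nfat5-1 in larvae were kept without each library of the stage. That of Nfat5-1 in juveniles was not run in this way, and the others were lost without 1 or more libraries, with adjusted p up to 0.141.

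Of 51 names of genes that respond to Wnt signalling in vertebrates, 20 were found, with 38 genes, of which 33 were tested. In larvae 2 rose and 0 fell, where 1 was lower at an unadjusted p under 0.05, and in juveniles 4 rose and 3 fell. In juveniles 10.8% of all tested genes were called higher and 11.1% lower, and in larvae 1.87% higher, so that the juvenile counts of this list of 33 lay near the background. Fgf9-1, a fibroblast growth factor gene, had 317, 288 and 222 normalized counts in irradiated juveniles, against 110, 109 and 130 in control juveniles (log2 fold change 1.23, adjusted p = 0.000493). In larvae it had 222, 202 and 187 after irradiation, against 118, 96.7 and 130 in controls (log2 fold change 0.83, adjusted p = 0.0221, and up to 0.0761 with 1 library left out). Jun, a transcription factor gene, had 8713, 6889 and 7956 in irradiated juveniles, against 13988, 13623 and 14282 in control juveniles (log2 fold change −0.83, adjusted p = 0.00153). In larvae it had 5009, 6706 and 4710 after irradiation, against 5448, 4702 and 5533 in controls, without a call, and the difference between the stages was called (−0.90, adjusted p = 0.0331). Six3 (0.72) and Met-7 (0.79) rose and Sox17-1 (−0.60) and Sox17-2 (−0.67) fell in juveniles, and Sox9-2 rose in larvae (1.12). Met-7 lost its call with 4, Sox17-1 with 6 and Sox9-2 with 5 of the 6 libraries left out in turn, and 72.7% of the Sox9-2 reads were not placed uniquely. The list holds genes that respond to other signals as well, and its members moved in both directions.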

How the data were processed

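RNA sequencing of 12 libraries was used, 3 in each of 4 groups assigned from the sample labels. The authors mapped paired reads to the annotated v2.0 genome with CLC Genomics Workbench and deposited raw counts per gene for each library. These are total gene reads (exon plus intron), with unique and exon reads beside them. The sharing of reads between similar genes was done before deposit, can move values between copies, and could not be varied here. The deposited TPM, calculated by the authors from exon reads, was used for levels. The deposited RPKM was not used. The study compared irradiated with non-irradiated animals by DESeq2.

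The total gene reads were tested with edgeR 4.0.16 in R 4.3.3: filterByExpr on the 4 groups, TMM normalization (factors 0.931 to 1.07), and quasi-likelihood tests on all 12 libraries with 1 mean per group. Tests were two-sided, adjusted by the Benjamini-Hochberg method over 20780 genes and called at 0.05. SE is the log2 fold change divided by the root of the F statistic. The common biological coefficient of variation was 0.208, which sets the precision together with the depth of 7675726 to 26974509 reads. Limits for 0 reads use 3 counts over a group and take the reads of the other group as exact, which leaves out their counting error. Intervals on reads are exact and cover counting error only.

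Per-library values were given for genes called after irradiation, for the 6 largest stage differences in each direction among called genes with at least 20 normalized counts on average in controls, and for the core of the pathway. From the other lists, the 3 largest called falls and rises of each stage were named, apart from some items that are not reported here. Genes named beyond this were chosen after their values were seen. The members and lists were chosen with earlier results of these data known. Alternatives were DESeq2 1.42.0 and its size factors, no filter, a stage's 6 libraries alone, a replicate block, unique reads, exon reads, a threshold of 0.01, and each library left out in turn.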

Additional observations from a re-analysis of the deposited data

Results flagged for a closer look

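The response of Sfrp5-1 to irradiation differed between the stages. It was 1.10 higher on the log2 scale in juveniles than in larvae (adjusted p = 0.0113 over all tested genes, edgeR), with irradiated libraries above the controls in 3 of 3 libraries in each stage. Across the 12 fits that each left out 1 library it was 1.02 to 1.19 (adjusted p = 0.00749 to 0.0346). Dose differed with stage and cannot be told apart from it.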

How the results depend on the processing

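In larvae 1 Wnt signalling gene was called higher. DESeq2 called 3, and 0 were called with the replicate block, with the 6 larval libraries alone and at an adjusted p of 0.01, and 0 to 1 without single libraries. In juveniles 4 were called lower, but 1 at 0.01 and 2 to 5 without single libraries. The 2 called higher in juveniles became 6 with the 6 juvenile libraries alone, 1 with no filter, with the replicate block and at 0.01, and 1 to 2 without single libraries. The call of a difference between the stages was lost at 0.01, leaving 0. In the controls, 10 to 13 genes were lower and 15 to 19 higher without single libraries. The larval value of Apc-1 (−0.0036) changed sign with the replicate block (0.0047), with exon reads (0.000375) and without single libraries (−0.17 to 0.17). Signs also changed without single libraries for the larval values of Lrp5-2 (−0.34 to 0.18), Apc-2 (−0.11 to 0.022), Lrp6-5 (−0.071 to 0.017), Dvl3 (−0.043 to 0.23) and Wn11b-2 (−0.34 to 0.33), for the juvenile value of Lrp6-4 (−0.24 to 0.20) and for the difference between stages of Wnt2b (−0.17 to 0.063). The cause was not tested. Over all genes, 425 lower and 389 higher calls in larvae became 870 and 785 with DESeq2, 172 and 115 with the larval libraries alone and 100 and 64 at 0.01. In juveniles 2297 and 2246 became 1086 and 1150 at 0.01. For the difference, 333 and 389 became 710 and 787 with DESeq2, 207 and 263 with the replicate block, and 9 and 1 at 0.01. Libraries of the same replicate number did not deviate together (r of −0.12 to 0.09 across genes), so the numbers were not taken as pairs. With 3 libraries a group and the depth given, small responses of genes with few reads, such as the Lgr5 genes, could not be seen.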
